A study of Mus musculus with 3 samples.

Results

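The miR-15, miR-16, miR-195 and miR-322 family was followed through 6 mature miRNAs, chosen by name from the 1915 mature miRNAs in each library: miR-15a-5p, miR-15b-5p, miR-15b-3p, miR-16-5p, miR-195a-5p and miR-322-5p. Small RNA had been sequenced from the mouse melanoma line B16 (labelled skin, melanoma, strain C57BL/6J), from exosomes that B16 sheds, and from exosomes of the mouse skin line JB6 (labelled skin, normal, strain BALB/c). Exosomes are small vesicles that cells release, and these had been collected by ultracentrifugation. Each of the 3 groups was 1 library. No spread between samples could be estimated, no test across samples was made, and every interval given is an exact 95% interval that covers counting error alone. No library of JB6 cells was analysed here, so line, strain and disease state change together wherever JB6 exosomes are compared.

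A mature miRNA guides the silencing complex to messenger RNAs that pair with its seed, which is bases 2 to 8 of the miRNA. The miR-15 and miR-16 family is known for restraining the cell cycle through targets such as cyclins D and E and for lowering BCL2, a protein that blocks cell death. Each hairpin precursor can yield a mature strand from either arm, called 5p or 3p after the side of the hairpin from which it comes. Guide strand here names the 5p members, which share the family seed, and passenger strand a 3p arm, whichever had more reads. In B16 cells the 3p arm had more reads than the 5p arm for miR-195a, miR-322 and miR-503.

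The mature sequences show what joins the members, and all 6 were matched by name in RefSeq (GRCm38.p6). They are printed 5′ to 3′ with the seed in capitals.
miR-16-5p: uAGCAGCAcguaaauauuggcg
miR-195a-5p: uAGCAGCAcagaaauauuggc
miR-15a-5p: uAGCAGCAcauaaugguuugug
miR-15b-5p: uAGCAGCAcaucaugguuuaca
miR-322-5p: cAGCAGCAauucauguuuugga
miR-15b-3p: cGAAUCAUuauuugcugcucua
The 5 members on the 5p arm share the seed AGCAGCA. Among 1623 miRNAs of the deposited files that have a RefSeq sequence, 10 carry it, which is 0.616%. miR-15b-3p, the passenger strand of miR-15b, has the seed GAAUCAU, which no other of these miRNAs carries. It is a member by its hairpin, not by its seed. Outside the seed the guides differ. Compared base by base from the 5′ end, miR-16-5p and miR-195a-5p differ at 2 of 21 bases, and miR-15a-5p and miR-15b-5p at 4 of 22. No source used here states how reads that fit more than 1 of these were counted, so the split between miR-16-5p and miR-195a-5p is uncertain to that extent.

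The members come from 4 pairs of neighbouring hairpins in the mouse genome (GRCm38). Mir15b (chr3:69009772-69009835, plus strand) and Mir16-2 (chr3:69009902-69009996, plus strand) lie 66 bases apart in an intron of Smc4, which encodes a condensin subunit. Mir16-1 (chr14:61631880-61631972, minus strand) overlaps an exon of the non-coding Dleu2 gene in GENCODE M21. The Mir15a arms (chr14:61632038-61632096, minus strand) lie 65 bases from it, in an intron of Dleu2. Mir195a (chr11:70235042-70235135, plus strand) has Mir497 at 241 bases, and Mir322 (chrX:53054255-53054349, minus strand) has Mir503 at 200 bases. Apart from Mir497b, which overlaps Mir497 on the other strand, GENCODE M21 places no other gene over these last 4 hairpins. Because miR-16-5p is made from both Mir16-1 and Mir16-2, its count cannot be assigned to either locus, while the 3p arms can.

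Depth decided what could be seen. The B16 cell library held 7925726 miRNA reads, the JB6 exosome library 4495956 and the B16 exosome library 45677. No listed count was below 10 reads, so a listed 0 stands for at most 9 reads. As RPM, the reads of a miRNA scaled to 1000000 miRNA reads, this limit is 1.14 in B16 cells, 2.002 in JB6 exosomes and 197 in B16 exosomes. Of the total behind the authors' own normalized values, miRNA reads made up 90.9% in B16 cells, 79.9% in JB6 exosomes and 5.39% in B16 exosomes. Markers of source tissue were checked beside the family. The melanocyte markers miR-211-5p and miR-204-5p summed to 2667 RPM in B16 cells and 1817 RPM in B16 exosomes, where miR-204-5p was listed at 0. In JB6 exosomes the melanocyte markers summed to 3.11 RPM, with miR-211-5p at 0. Of 7 epithelial and keratinocyte markers, JB6 exosomes listed 2, at 7.78 RPM in sum, and B16 cells 4, at 24.9 RPM. B16 exosomes listed none of them. miR-205-5p was at 0 in every library and miR-200c-3p in both exosome libraries. The 4 red-cell markers, among them miR-451a, summed to 14816 RPM in JB6 exosomes, against 40.2 RPM in B16 cells. The 3 muscle markers summed to 3707 and 1.39 RPM in the same order, and the 4 leukocyte markers to 15.35 and 1.26 RPM. No red-cell, muscle or leukocyte marker was listed in B16 exosomes. The liver miRNA miR-122-5p stood at 251231 RPM in JB6 exosomes, 525 RPM in B16 exosomes and 53.1 RPM in B16 cells. Red cells are themselves rich in miR-16 as background knowledge. The part of these sources in the family's values was not tested.

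miR-16-5p was the leading member in every library. It had 9558 reads in the cells, 123 in their exosomes and 238 in the JB6 exosomes. As levels these are 1206 RPM (1182 to 1230), 2693 RPM (2238 to 3212) and 52.9 RPM (46.4 to 60.1), and the 3 intervals do not overlap. By rank it stood at 74 of 559 listed miRNAs in the B16 cell library, at 43 of 149 in their exosomes and at 153 of 389 in the JB6 library.

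miR-15b-5p was the next guide strand in B16 cells and the only other guide listed above 0 in B16 exosomes. Its reads numbered 3848 in the cells, 12 in their exosomes and 10 in the JB6 exosomes, or 486 RPM (470 to 501), 263 RPM (136 to 459) and 2.22 RPM (1.07 to 4.09). The B16 exosome interval ends below that of the cells, and both lie far above the JB6 exosome level. Its near twin miR-15a-5p had 246 reads in B16 cells (31.04 RPM, 27.3 to 35.2) and was listed at 0 in both exosome libraries. In B16 cells miR-15b-5p had 15.6 times the reads of miR-15a-5p (13.7 to 17.9).

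miR-195a-5p, which differs least from miR-16-5p in sequence, had 1087 reads in B16 cells (137 RPM, 129 to 146) and 17 in JB6 exosomes (3.78 RPM, 2.203 to 6.05). It was listed at 0 in B16 exosomes. miR-322-5p, the mouse counterpart of human miR-424, had 150 reads in B16 cells (18.9 RPM, 16.02 to 22.2) and was listed at 0 in both exosome libraries. miR-15b-3p had 1414 reads in B16 cells (178 RPM, 169 to 188), a listed 0 in B16 exosomes and 32 reads in JB6 exosomes (7.12 RPM, 4.87 to 10.05). The cells therefore listed all 6 members, their exosomes 2 and the JB6 exosomes 4. Of all 1915 miRNAs the same libraries listed 559, 149 and 389 in that order.

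The order of levels in B16 cells was miR-16-5p, miR-15b-5p, miR-15b-3p, miR-195a-5p, miR-15a-5p and miR-322-5p. Each step was larger than counting error, the smallest being miR-15b-3p over miR-195a-5p at 1.301 times (1.201 to 1.41). In JB6 exosomes the order was miR-16-5p, miR-15b-3p, miR-195a-5p and miR-15b-5p. There miR-195a-5p and miR-15b-5p did not differ beyond counting error, with a ratio of 1.70 (0.735 to 4.15). In B16 exosomes miR-16-5p had 10.25 times the reads of miR-15b-5p (5.66 to 20.4), against 2.48 times in B16 cells (2.39 to 2.58) and 23.8 times in JB6 exosomes (12.7 to 50.3). This lead of miR-16-5p is a ratio within a library and needs no scaling, and its interval in B16 cells lies below those of both exosome libraries. Of the reads of the 5 guide strands, miR-16-5p took 64.2% in the cells (63.4 to 65.0), 91.1% in their exosomes (85.0 to 95.3) and 89.8% in the JB6 exosomes (85.5 to 93.2). With every listed 0 raised to 9 reads the exosome shares would be 75.9% and 84.1%.

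**Figure D1:**
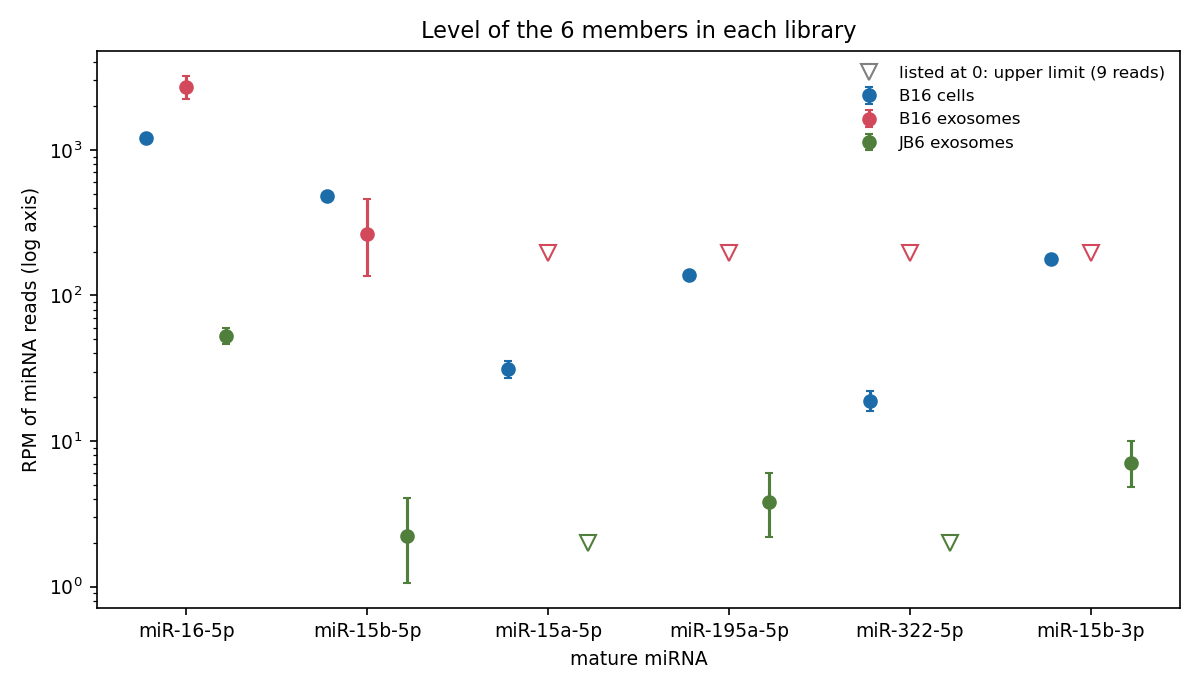
Level of each member in each library, in RPM of miRNA reads on a log axis. Points are the 3 libraries with exact 95% counting intervals, and open triangles mark the most that a listed 0 allows. miR-16-5p is the highest member in every library, and every JB6 exosome value lies below the B16 cell value of the same member.

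B16 exosomes were compared with B16 cells to ask which members are over- or under-represented in the vesicles of the melanoma line. A miRNA with 30 or more reads over both libraries was called higher or lower when its share of miRNA reads differed at least 2-fold with an interval that excluded 1. miR-16-5p was higher, at 2.23 times its share in the cells (1.85 to 2.67). miR-15b-5p had 0.541 of its cell share (0.279 to 0.946), which falls short of 2-fold. The other 4 could not be resolved. At their cell share the B16 exosome library would have held 8.15 reads of miR-15b-3p, 6.26 of miR-195a-5p, 1.42 of miR-15a-5p and 0.864 of miR-322-5p, all too few to be listed. So 1 of 6 members was called higher and 0 lower, where 8.53% of 422 tested miRNAs were higher and 7.82% lower. This share rests on 1 miRNA.

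The call for miR-16-5p depended on the scaling. Its ratio was 2.05 with DESeq2 size factors (1.70 to 2.45) and 2.33 against totals without the 10 most abundant miRNAs (1.93 to 2.78). It was 1.10 with TMM factors (0.915 to 1.32). It turned to 0.132 (0.110 to 0.158) against the total behind the authors' values, where miR-16-5p stood at 145.1 RPM in the exosomes and 1096 RPM in the cells. miR-15b-5p was called lower with TMM factors, at 0.267 (0.138 to 0.467), and with DESeq2 size factors, at 0.496 (0.256 to 0.868). The summed guide strands were 1.57 times as frequent in B16 exosomes as in the cells (1.32 to 1.86), and fell to 0.776 with TMM factors (0.651 to 0.920). Without miR-16-5p that ratio was 0.391 (0.202 to 0.683) with listed zeros counted as 0, and 1.27 (0.902 to 1.74) with each at 9 reads. The direction for the sum of the other 4 guides was therefore not determined at this depth. Of these, miR-15b-5p alone was listed in B16 exosomes, and its ratio was below 1 under each scaling.

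B16 exosomes were then set beside JB6 exosomes, to see how the family stands in vesicles from a melanoma source and from a skin line labelled normal. miR-16-5p, at 123 against 238 reads, had a share 50.9 times higher in B16 exosomes (40.6 to 63.5). It was called higher under the 5 scalings tried, with the ratio down to 7.80 with DESeq2 size factors and 3.43 against the total behind the authors' values. miR-15b-5p, with 12 and 10 reads, fell under the minimum of 30 reads, and its shares stood at a ratio of 118 (46.8 to 305). miR-15b-3p was listed at 0 in B16 exosomes and was not resolved, and the other 3 had too few reads. Of the 6 members 2 thus had enough reads, and of these 1 was called higher and 0 lower. Over all 300 tested miRNAs 31.3% were higher and 11.7% lower, and the share of the members rests on 1 miRNA. The median log2 ratio over the 131 miRNAs tested and listed in both libraries was 2.62, and that of miR-16-5p was 5.67.

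JB6 exosomes were also set against B16 cells, the pair of deep libraries, which differ in both line and compartment. All 6 members were lower in JB6 exosomes, where 60.7% of 501 tested miRNAs were lower and 26.1% higher. The share of miR-15b-5p was 218-fold lower (119 to 456), that of miR-195a-5p 36.3-fold (22.5 to 62.5), that of miR-15b-3p 25.1-fold (17.7 to 36.8) and that of miR-16-5p 22.8-fold (20.03 to 26.02). miR-15a-5p and miR-322-5p, listed at 0 in JB6 exosomes, were at least 15.5-fold and 9.45-fold lower at 9 reads, and counting error brings these bounds to 8.04-fold and 4.85-fold. The median log2 ratio over the 6, with those bounds, was -4.58, against -1.75 over all 501 tested miRNAs with listed zeros treated the same way. miR-15b-5p lay below the other 3 listed members by more than the counting intervals. Under DESeq2 size factors 5 of 6 were lower, and miR-322-5p was no longer resolved. This comparison and the preceding ones share libraries, so they are not independent of each other.

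**Figure D2:**
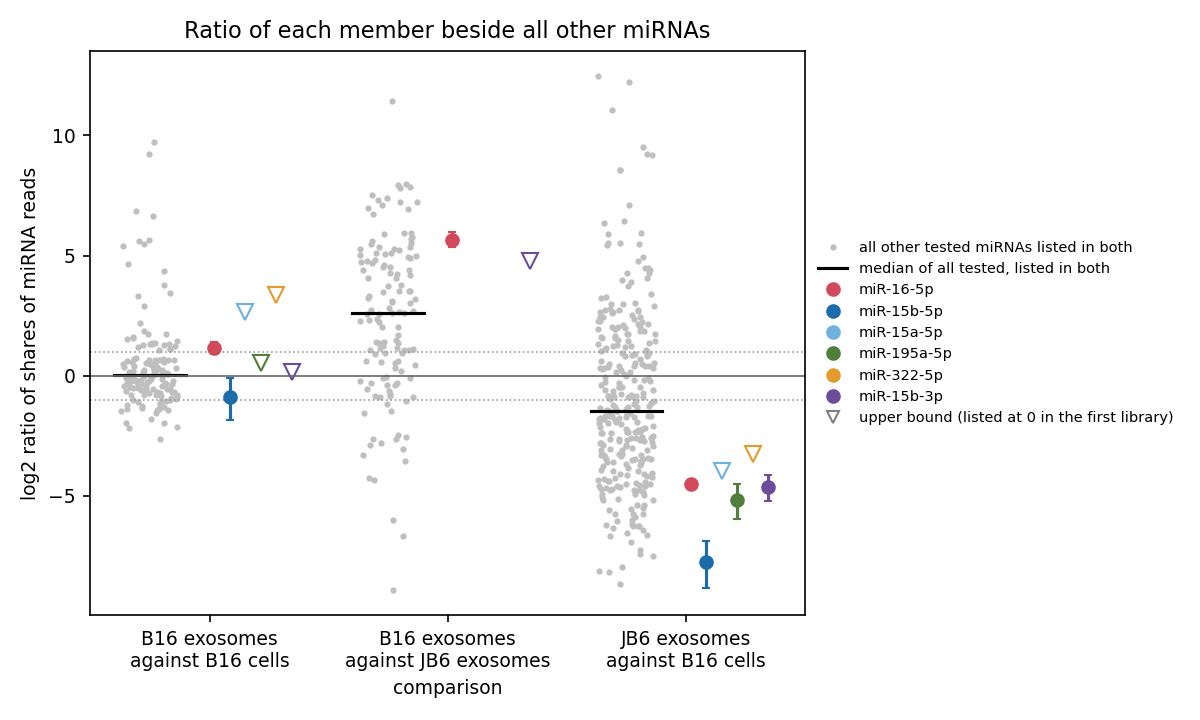
Log2 ratio of the share of miRNA reads of each member in the 3 comparisons, with exact 95% counting intervals. Grey points are the other tested miRNAs listed in both libraries, black bars the median of all of these with the members, open triangles upper bounds, and dotted lines the 2-fold rule. The members of the JB6 exosome against B16 cell comparison all lie below the black bar at -1.47.

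**Figure D3:**
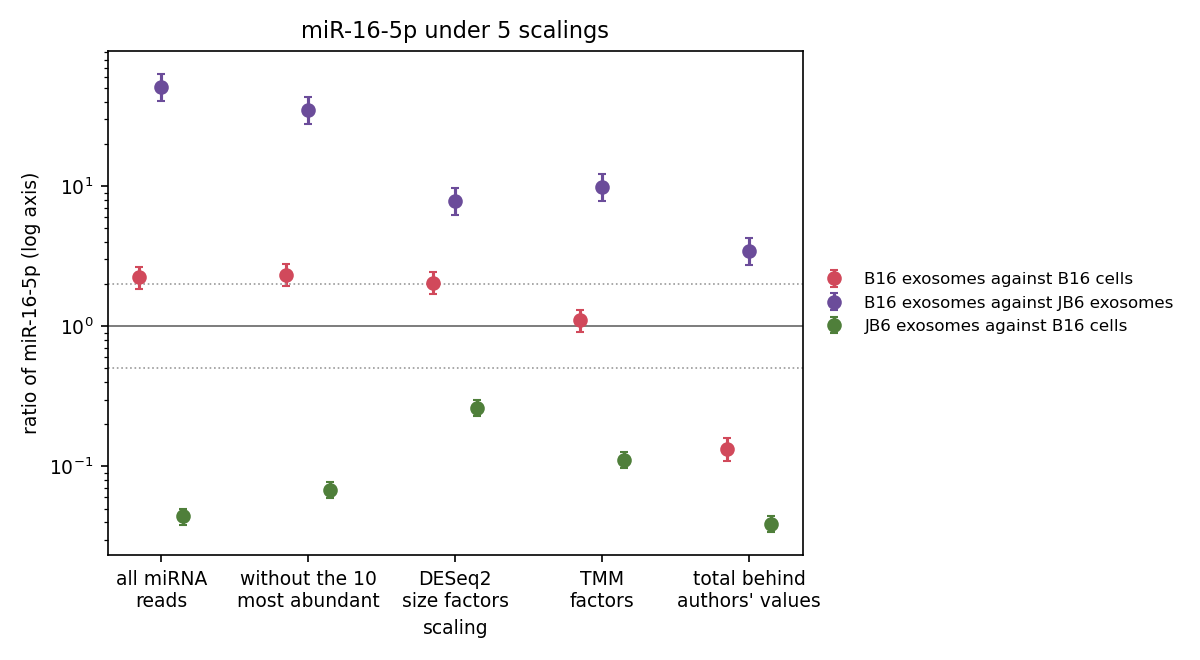
Ratio of miR-16-5p on a log axis under 5 scalings, with exact 95% counting intervals, for the 3 comparisons. The B16 exosome to B16 cell ratio runs from 2.33 down to 0.132 and crosses the line at 1, while the other ratios stay on their side of the dotted 2-fold lines.

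Base composition differed along with the JB6 comparisons. The members hold between 36.4% (miR-15b-3p) and 45.5% (miR-16-5p) G and C. Among miRNAs with a sequence, 74.5% of the 216 with under 50% G and C were lower in JB6 exosomes than in B16 cells, and 50.4% of the 226 others. Across 270 miRNAs listed in both libraries the Spearman coefficient between G and C content and log2 ratio was 0.33, given as a description of miRNAs that share the same pair of libraries. For B16 exosomes and B16 cells it was 0.05 over 128 miRNAs, and for B16 and JB6 exosomes -0.27 over 115. Between the exosome libraries 47.5% of the 120 miRNAs with under 50% G and C were higher in B16 exosomes and 5.83% lower. Of the 138 others 19.6% were higher and 15.2% lower. The part of base composition in the members' values was not tested.

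The arm balance of miR-15b differed between the libraries. Its hairpin is printed with both mature arms in capitals, the 5p arm first.
Mir15b (chr3:69009772-69009835, plus strand): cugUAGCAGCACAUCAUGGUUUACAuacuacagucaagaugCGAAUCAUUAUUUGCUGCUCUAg
In B16 cells 1414 of the 5262 reads of both arms came from the 3p arm. In JB6 exosomes 32 of 42 did. As shares these were 26.9% (25.7 to 28.1) and 76.2% (60.5 to 87.9), so the more frequent arm was 5p in the cells and 3p in the JB6 exosomes. The 3p to 5p ratio was 8.71 times higher in JB6 exosomes (4.16 to 19.9). In B16 exosomes 12 reads came from the 5p arm and the 3p arm was listed at 0. This allows a 3p share of up to 42.9%, or 66.0% with counting error. That share cannot be told from the one in B16 cells, and the 3p to 5p ratio was at least 4.27-fold lower than in JB6 exosomes, or 1.21-fold with counting error. Of 54 hairpins compared between the exosome libraries 16.7% moved toward 5p and 9.26% toward 3p.

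A move toward the 3p arm was common in JB6 exosomes. Of 129 hairpins with reads in both deep libraries 39.5% moved toward 3p and 24% toward 5p by the same 2-fold rule, and the median log2 change over the 63 with all arms listed was 2.35. Other hairpins of the family moved the same way as miR-15b, whose own log2 change was 3.12. miR-195a was already tilted to 3p in B16 cells, with 1639 reads of 3p against 1087 of 5p, and had 376 against 17 in JB6 exosomes. Its 3p share went from 60.1% (58.3 to 62.0) to 95.7% (93.2 to 97.5), and its 3p to 5p ratio was 14.7 times higher (8.97 to 25.6). miR-503 had 691 reads of 3p and 448 of 5p in B16 cells, and 434 and a listed 0 in JB6 exosomes, a ratio at least 31.3 times higher (16.1 with counting error). miR-322 was nearly all 3p in B16 cells, with 5006 reads of 3p against 150 of 5p (97.1%, 96.6 to 97.5). In JB6 exosomes its 480 reads of 3p with a listed 0 for 5p gave at least 98.2%, which was not resolved from the cells.

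miR-16 moved the other way. Its Mir16-1 passenger strand miR-16-1-3p had 4300 reads in B16 cells beside 9558 of miR-16-5p, and 32 beside 238 in JB6 exosomes. The ratio of miR-16-1-3p to miR-16-5p was 3.35-fold lower in JB6 exosomes (2.30 to 5.01). In B16 exosomes miR-16-1-3p was listed at 0 beside 123 reads of miR-16-5p, and the ratio was at least 6.15-fold lower than in the cells, or 3.13-fold with counting error. Of 79 hairpins compared between B16 exosomes and B16 cells 3.8% moved toward 5p, 5.06% toward 3p, and 65 were not resolved. These arm ratios are taken within a library and do not move with the scaling. Because miR-16-5p also comes from Mir16-2, the ratio is not the arm balance of 1 hairpin.

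**Figure D4:**
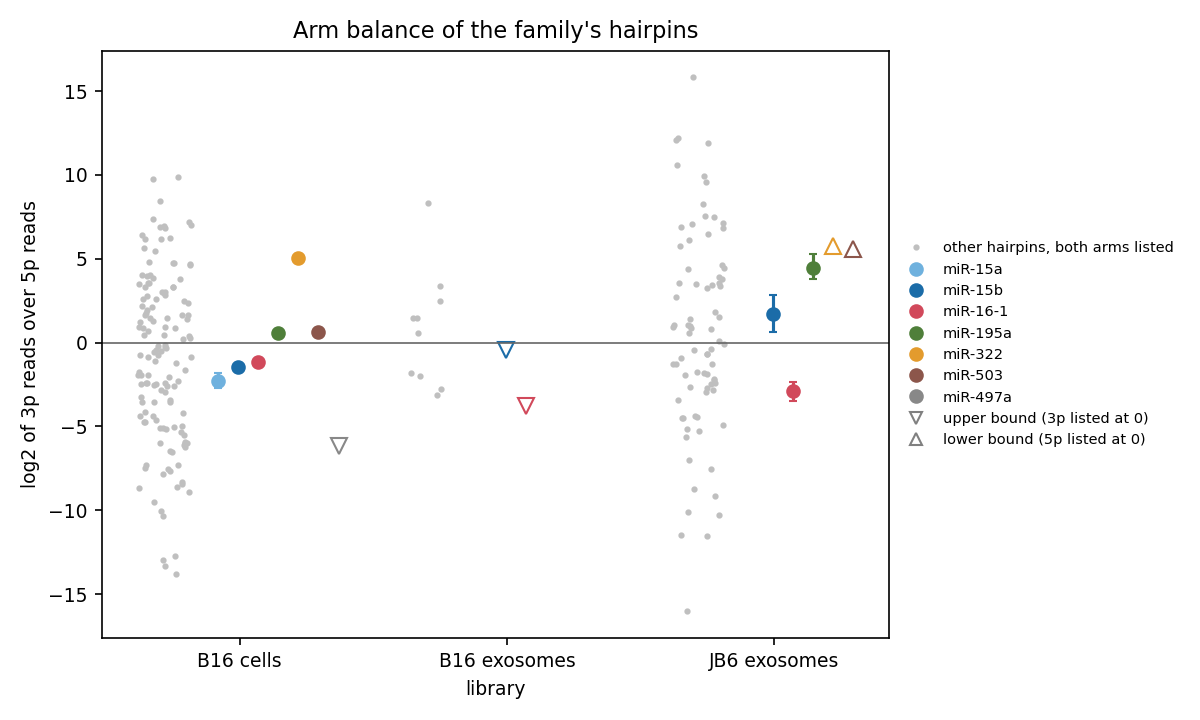
Log2 of 3p reads over 5p reads for the hairpins of the family in each library, with exact 95% counting intervals; for miR-16-1 the 5p arm is shared with Mir16-2. Grey points are other hairpins with both arms listed, and triangles are bounds from a listed 0. From B16 cells to JB6 exosomes miR-15b crosses the line of equal arms upward, miR-195a rises further, and miR-16-1 falls.

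The 3p arms of the family's hairpins were described as a list of 7 opposite arms. They are shown where they carry the results.
miR-16-1-3p: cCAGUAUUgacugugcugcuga
miR-195a-3p: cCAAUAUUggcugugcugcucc
miR-322-3p: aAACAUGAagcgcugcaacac
miR-503-3p: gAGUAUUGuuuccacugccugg
Their seeds, in capitals, differ from AGCAGCA and from each other. Between B16 exosomes and B16 cells, miR-16-1-3p and miR-322-3p were lower in the exosomes, at least 2.75-fold and 3.21-fold, since 24.8 and 28.9 reads would have been seen at the cell share and both were listed at 0. With counting error these bounds come to 1.45-fold and 1.69-fold. Of the 7, 2 were thus lower and 0 higher (background 7.82% and 8.53%), 4 were not resolved, and miR-497a-3p was listed at 0 throughout. With TMM or the total behind the authors' values, every ratio of that comparison falls further. Between B16 and JB6 exosomes 4 had enough reads and none was resolved (background 31.3% higher and 11.7% lower). With TMM, DESeq2 or the total behind the authors' values 3 were lower in B16 exosomes. In JB6 exosomes against B16 cells 5 of the 6 with enough reads were lower and 0 higher (background 60.7% and 26.1%). This became 3 lower and 1 higher with TMM and 2 lower and 2 higher with DESeq2 size factors. miR-16-1-3p was 76.2-fold lower (53.9 to 112), miR-322-3p 5.92-fold (5.39 to 6.51) and miR-195a-3p 2.47-fold (2.21 to 2.77). miR-16-1-3p was also called lower under TMM and DESeq2. The ratio of miR-322-3p came to 1.01 with DESeq2, which ended its call. miR-195a-3p turned, to a ratio of 1.03 with TMM and to 2.42 with DESeq2, where it was called higher. miR-503-3p was neither, with 691 reads in the cells and 434 in the exosomes and a ratio of 1.11 (0.980 to 1.25), but was called higher at 2.82 with TMM and 6.62 with DESeq2. In B16 cells miR-16-1-3p had 8.94 times the reads of miR-16-2-3p (8.13 to 9.84), so the chromosome 14 locus led among these passenger strands, whereas its neighbour miR-15a-5p was far below miR-15b-5p of the chromosome 3 locus.

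Among relatives with the same or a nearly identical seed, only miR-497a-5p and miR-503-5p were listed, both in B16 cells alone. Their levels there were above those of the members miR-15a-5p and miR-322-5p. miR-497a-5p, the neighbour of miR-195a, had 652 reads in B16 cells (82.3 RPM) and was listed at 0 in both exosome libraries. miR-503-5p, whose seed AGCAGCG differs from that of the family in its last base, had 448 reads in B16 cells (56.5 RPM) and was likewise listed at 0 in the exosomes. They were at least 41.1-fold and 28.2-fold lower in JB6 exosomes, or 21.5-fold and 14.7-fold with counting error. miR-497b had 127 reads in B16 cells and 18 in JB6 exosomes, a share 4.002-fold lower (2.43 to 6.97). That call was lost with TMM, at a ratio of 0.636 (0.365 to 1.05), and the direction turned with DESeq2, at 1.49 (0.857 to 2.46). Its hairpin overlaps Mir497 on the other strand and it does not carry the family seed, and no source used here states whether strand was used in the counting. miR-195b, miR-1907, miR-6342, miR-6353 and miR-6419 were listed at 0 in every library, and miR-424 is not a name in the files. Of these 9 names 3 could be evaluated in each comparison with B16 cells. In JB6 exosomes against B16 cells all 3 were lower (background 60.7%), or 2 without miR-497b under TMM and DESeq2. In B16 exosomes against B16 cells none was resolved, except that 2 were lower on the total behind the authors' values.

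The neighbours of miR-322 on the X chromosome, read from the same region, formed a list of 11 mature miRNAs from miR-503, miR-351, miR-542 and miR-450. In JB6 exosomes against B16 cells 7 were lower, 1 was higher and 1 was neither, while 2 had too few reads (background 60.7% lower and 26.1% higher). With DESeq2 size factors 4 were lower and 2 higher, and with TMM 6 and 2. miR-351-5p, with 4843 reads in the cells and 58 in the exosomes, was 47.4-fold lower (36.6 to 62.5), and its opposite arm miR-351-3p, with 75 and 120, was the higher entry at 2.82 times (2.10 to 3.82). Set against B16 cells, the B16 exosome value of miR-351-5p, listed at 0, was at least 3.10-fold lower, or 1.63-fold with counting error. In the same comparison miR-542-3p, with 12 reads against 1327, was neither at 1.57 times (0.809 to 2.75). The remaining 7 with enough reads were not resolved. The 1 lower and 0 higher entries stand beside a background of 7.82% and 8.53%, and on the total behind the authors' values 7 were lower. In B16 exosomes against JB6 exosomes miR-542-3p, with 12 reads against 70, was higher at 16.9 times (8.32 to 31.4). The 4 others with enough reads were not resolved, so 1 was higher and 0 lower (background 31.3% and 11.7%). With TMM or DESeq2 this became 1 higher and 1 lower. On the total behind the authors' values it became 0 higher and 2 lower. There the call of miR-542-3p was lost, at 1.14 times (0.561 to 2.12).

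As a counterpart, 9 miRNAs of the miR-17-92 and miR-106b-25 clusters, which are known to promote the cell cycle, were counted in the same way. Between B16 exosomes and B16 cells none was called (background 8.53% higher and 7.82% lower), with 7 neither and 2 not resolved. With TMM 5 were lower, and 9 on the total behind the authors' values. miR-20a-5p at 154 and 42339 reads had a ratio of 0.631 (0.535 to 0.739). In JB6 exosomes against B16 cells 7 of 9 were lower (background 60.7%), with miR-20a-5p 36.0-fold lower (33.3 to 38.9) and miR-93-5p 27.04-fold (24.9 to 29.4), folds of the size seen for the members. miR-92a-3p was higher at 4.33 times (4.29 to 4.36) and miR-25-3p was neither at 0.987 (0.977 to 0.998), but was called higher at 2.52 with TMM and 5.90 with DESeq2. In B16 exosomes against JB6 exosomes 5 were higher and 1 lower (background 31.3% and 11.7%), which became 5 and 2 with TMM or DESeq2 and 2 and 2 on the total behind the authors' values.

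The pattern of miR-16-5p over the 3 libraries was most like that of let-7f-5p, miR-425-5p, miR-184-3p, miR-30e-3p and miR-26a-5p. The measure was the distance between log2 shares centred over the libraries, among 87 other miRNAs with 30 or more reads in each. The 5 distances ran from 0.35 to 0.56, against a median of 2.58 over all 87. let-7f-5p, a guide strand of the let-7 family, was the nearest, with 59527 RPM in the cells, 94730 RPM in their exosomes and 2343 RPM in the JB6 exosomes. miR-425-5p was next and close to miR-16-5p in level as well, with 645 RPM, 1029 RPM and 27.6 RPM in that order. No other member had 30 reads in all 3 libraries. With 3 libraries this likeness is a description of the libraries.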

How the data were processed

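Small-RNA libraries of B16 cells, B16 exosomes and JB6 exosomes were used, 1 each, grouped by the labels. Per the submitters' processing notes, bcl2fastq, BWA and the mouse build mm10 were used. No source used here gives versions, trimming, the miRNA release, the use of strand or the treatment of multiple matches. The deposited files hold a raw read count per mature miRNA. They also hold a normalized value that the authors computed, in RPM of a total larger than the miRNA reads (8721363, 847694 and 5626936 in B16 cells, B16 exosomes and JB6 exosomes), whose content is not stated.

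Shares of total miRNA counts were compared as ratios with exact conditional binomial (Clopper-Pearson) 95% intervals, and 3p to 5p ratios with exact conditional odds-ratio intervals (SciPy 1.17.1). The libraries carry no stated molecular identifiers, PCR copies are not separate molecules, and intervals cover counting error only. A miRNA with 30 or more reads over a pair was called at 2-fold with an interval that excluded 1. A listed 0 was set to 9 reads and gives a bound. The ratio and call code was tested on simulated data. Alternative scalings used edgeR 4.0.16 (TMM) and DESeq2 1.42.0 (size factors) on the counts. Named miRNAs were the 6 members, fixed lists of seed relatives, opposite arms, miR-322 neighbours, cell-cycle promoting miRNAs and tissue markers, and the 5 miRNAs nearest to miR-16-5p in pattern. From the lists, entries listed above 0 could be named, and at most 4 of the cell-cycle promoting list. Members and lists were chosen with earlier results of these data known. The treatment of a listed 0, the arm comparison over all hairpins, the miR-16-5p with miR-195a-5p sum, the scalings of the lists and their named entries, and the base-composition description were chosen after the values were seen. Sequences and hairpin positions are from RefSeq (GRCm38.p6) and gene overlaps from GENCODE M21.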

Additional observations from a re-analysis of the deposited data

How the results depend on the processing

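No paired analysis was possible because each group is 1 library, and for the same reason no replicate could be left out. Changing the scaling moved every log2 ratio by one constant per comparison. For B16 exosomes against B16 cells it was -1.02 under TMM, -0.13 under DESeq2 size factors, 0.06 on totals lacking the most abundant miRNAs and -4.08 on the total behind the authors' values. For B16 against JB6 exosomes it was -2.37, -2.70, -0.54 and -3.89, and for JB6 exosomes against B16 cells 1.35, 2.58, 0.62 and -0.19. In B16 exosomes against B16 cells the 1 higher member became 0 with TMM, with the total behind the authors' values and when the interval bound itself had to reach 2-fold. The 0 lower members became 1 with TMM, 1 with DESeq2 and 5 with the authors' total. miR-16-5p turned to 0.132 with that total. The summed guide strands, at 1.57, turned to 0.776 with TMM, 0.0933 with the authors' total and 0.391 without miR-16-5p. With listed zeros at 9 reads the sum was 1.89, or 1.27 without miR-16-5p. In B16 against JB6 exosomes the 1 higher member became 2 at a minimum of 10 reads and 2 with no minimum, which admit miR-15b-5p. The summed guide strands, at 50.1 times, were 9.72, 7.69, 34.4 and 3.38 under those scalings in the same order, and 85.3 without miR-16-5p with zeros at 9 reads. In JB6 exosomes against B16 cells the summed ratio of 0.0314 was 0.0799, 0.188, 0.0484 and 0.0276 in that order, 0.00893 without miR-16-5p, and 0.0149 with zeros also at 9 reads. The miR-15b 3p share was 25.7% in B16 cells with miR-15a-5p added to the 5p arm, and 0% in B16 exosomes with the listed 0 read as 0. The other 62 values of these results kept their direction and call, or stayed within 1.5 times or the counting interval. Of the miRNAs named beside the members, some turned direction. miR-25-3p turned to 0.0891 in B16 exosomes against B16 cells on the authors' total, to 0.295, 0.233 and 0.103 against JB6 exosomes with TMM, DESeq2 and that total, and to 2.52 and 5.90 in JB6 exosomes against B16 cells with TMM and DESeq2. In the last comparison miR-195a-3p turned to 1.03 and 2.42 with these, and miR-322-3p to 1.01 and miR-497b to 1.49 with DESeq2. miR-542-3p turned to 0.0930 in B16 exosomes against B16 cells on the authors' total. In B16 exosomes a member listed at 0 needed 3124 reads in the cells to be called lower.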
